A study of Notophthalmus viridescens with 3 samples.

Results

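The heart of the adult red-spotted newt, Notophthalmus viridescens, was compared 7 days post injury (7 dpi) with the uninjured heart, over all miRNA probes of the array. The comparison uses 2 of the 3 samples of the series, chosen by their labels. They are 1 RNA sample from uninjured whole hearts, labelled with no stress, and 1 from whole hearts at 7 dpi. The third sample, at 21 dpi, is given beside some values. All were adults, and no allele, strain or drug is named for any of them. The labels describe the heart injury only by reference to an earlier publication, and they do not state how many animals each sample holds. With 1 array per group there is no replicate check and no test. Each spread below is over the 3 spots that each probe has on an array, which is technical. In whole-heart RNA, fewer cells of a type and less of a miRNA per cell cannot be told apart.

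MicroRNAs are short RNAs that guide a silencing complex to messenger RNAs, mainly through the bases near their start, called the seed, and so lower the output of the genes they pair with. Newts, unlike adult mammals, regrow heart muscle after injury, and the first week is known as a time of inflammation and clearance of the wound, before most new muscle is laid down. In vertebrate hearts miR-1 and miR-133 are abundant in muscle cells, miR-208 and miR-499 are encoded within myosin genes, miR-21 rises in many injured tissues, and miR-155, miR-150 and miR-223 are known from blood leukocytes.

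The probes that carry the comparison are shown with their target sequences as deposited, with the seed, bases 2 to 8, in capitals. The array was designed for human (hsa), zebrafish (dre) and frog (xtr, xla) miRNAs, so newt miRNAs were read through the probes of other species. Those of miRNAs that stood higher among the others at 7 dpi were
hsa-miR-21: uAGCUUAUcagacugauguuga
hsa-miR-155: uUAAUGCUaaucgugauaggggu
hsa-miR-223: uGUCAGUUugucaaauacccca
hsa-miR-466: aUACACAUacacgcaacacacau
hsa-miR-574-3p: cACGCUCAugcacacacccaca
hsa-miR-762: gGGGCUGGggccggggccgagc
and those that stood lower included
xtr-miR-139: uCUACAGUgcaugugucu
hsa-miR-148b: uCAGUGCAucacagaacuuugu
hsa-miR-128: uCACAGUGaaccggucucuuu
hsa-miR-184: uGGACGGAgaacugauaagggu
The last set is a family with 1 seed whose members did not move alike.
xla-miR-15c: uAGCAGCAcaucaugguuugua
dre-miR-16b: uAGCAGCAcguaaauauuggag
xtr-miR-16c: uAGCAGCAcguaaauacuggag
The miR-15 and miR-16 sequences share the seed AGCAGCA and differ after it.

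Each array held 1365 miRNA probes, 3 spots each. Signal here is the intensity of a probe's median spot minus the median empty spot of that array, which was 68.0 on the uninjured and 71.7 on the 7 dpi array. The detection level was the intensity that 95% of the empty spots did not reach, 73.8 and 77.5 on these arrays, and it was applied to the median spot. Where several species had a probe of the same name, the brightest stood for it, which left 1242 names. The uninjured array detected 186 of these and the 7 dpi array 184, with 158 in common. The 7 dpi array was dimmer for miRNAs: the summed signal of detected names was 183330 in the uninjured heart and 66090 at 7 dpi, leaving out names that match fragments of ribosomal, transfer and other structural RNA. Those structural names made up 18.1% of all summed signal in the uninjured heart and 37.9% at 7 dpi. The name miR-1826 alone made up 15.8% and 35.2%. Leaving the structural names out of the total was chosen with earlier results known, in which the brightest of them kept its signal on a dimmer array. The comparison therefore rests on ranks and shares within each array, which do not hang on the scaling between arrays.

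The order of miRNAs was largely kept at 7 dpi, and a minority moved far. Rank 1 is the brightest of the 158 names detected on both arrays. Of the 10 brightest names on each array 7 were shared, and of the 20 brightest 18. The median shift was 7 places. The Spearman correlation of ranks across names was 0.91, against 0.95 between the uninjured and 21 dpi arrays, where names share the array design and are not replicates. A name was called where it moved by at least 10% of the ranked names, or 15.8 places, and where its ranks from spot sets 1, 2 and 3 did not overlap between arrays. By that rule 19 names stood higher at 7 dpi, 12.0% of those ranked, and 20 stood lower, 12.7%. The scatter of ranks shows both groups.

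**Figure D1:**
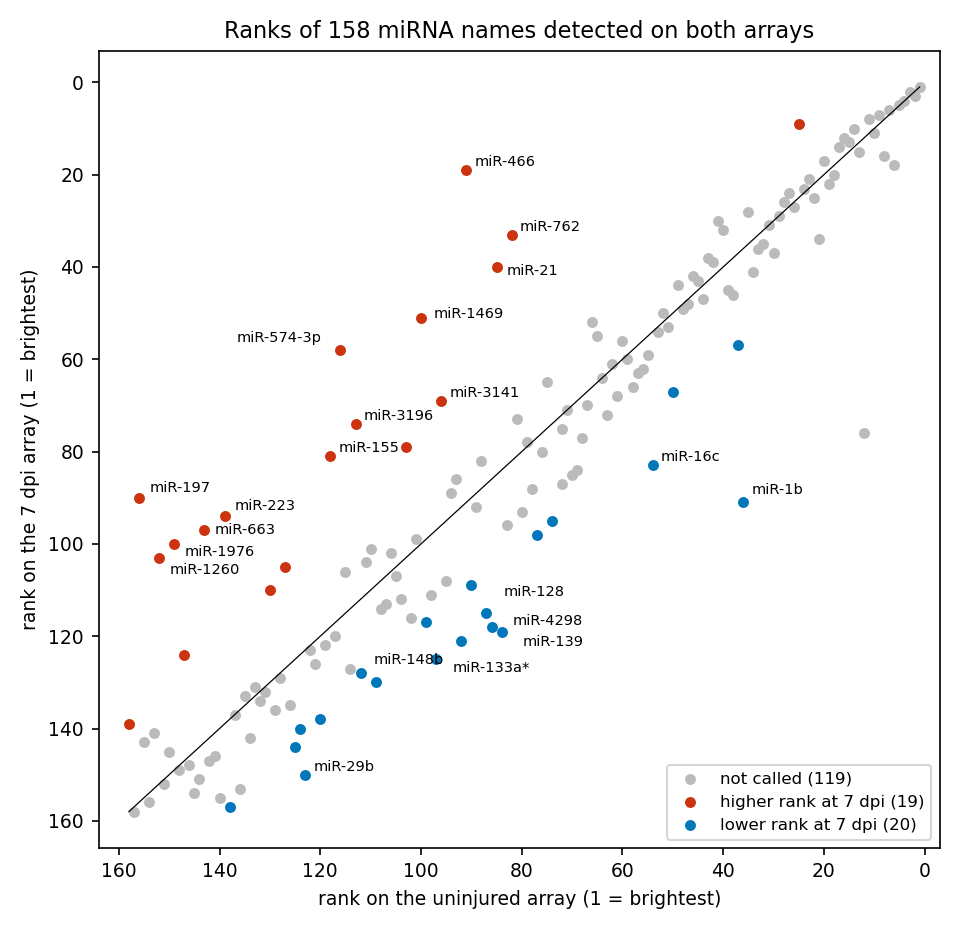
Rank of each of the 158 miRNA names on the uninjured array (x axis) and on the 7 dpi array (y axis), rank 1 being the brightest and the line marking equal rank. Red points are the 19 names called higher at 7 dpi, with miR-466 gaining the most places, and blue points the 20 called lower, with miR-1b losing the most; the grey point far below the line is miR-125c, which had 2 dim spots at 7 dpi.

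The heart muscle miRNAs did not shift together: miR-1 lost ground at 7 dpi, while miR-133, miR-208b and miR-499 stayed close to their places. Of the markers of striated muscle, miR-1, miR-133a, miR-133b, miR-208b and miR-499 were bright on both arrays, and miR-206 was not. The miR-1 probe read 13209, 14382 and 15480 on its 3 spots in the uninjured heart and 3852, 3997 and 3863 at 7 dpi. It was rank 2 and then rank 3, and all 7 dpi spots lay below all uninjured ones. Lower spots alone do not set miR-1 apart, as 137 of the 158 ranked names had less signal at 7 dpi. The frog miR-1a probe, the same sequence but for its end, read 7098, 6853 and 7288, and then 1515, 1206 and 1106, moving from rank 6 to rank 18. The frog miR-1b probe differs from miR-1 by A9U, counted from the 5′ end of miR-1. It read 1332, 1452 and 1591 in the uninjured heart and 103, 102 and 94.7 at 7 dpi, and fell from rank 36 to rank 91.

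As a share of all summed signal outside the structural names, the family of miR-1 and miR-206 made up 12.5% ± 0.05 (SD of 3 spot sets) in the uninjured heart and 7.82% ± 0.33 at 7 dpi. The log2 ratio of these shares was -0.68, and the spot sets did not overlap. The 21 dpi array had 7.64%. The remaining name of the family, miR-206, which is known from skeletal muscle, read 12.4 in the uninjured heart and was not detected at 7 dpi. The ratio depended on the probes summed: it was -0.42 for the brightest probe alone and -0.51 without the dimmer probes of near-identical pairs, a choice made after seeing the data. Spot sets did not overlap between the arrays for most families, also for miR-23/27/24 with 11.3% and 12.3% of the signal. The spread of spot sets does not cover differences between probes of the same sequence, which were of like size. The miR-1a signal was 49.4% of that of miR-1 in the uninjured heart and 31.2% at 7 dpi, a log2 change of -0.66.

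The miR-133 family, which in mammals is made from the same transcripts as miR-1, made up 5.29% ± 0.18 and then 6.06% ± 0.39, and its 4 names moved by a median of 2.5 places. Its share was higher at 7 dpi by 0.20 on the log2 scale, and lower by 0.20 when the structural names were counted in the total. The miR-133a probe read 2312, 2578 and 2950 in the uninjured heart and 1082, 1075 and 1193 at 7 dpi. These spots did not overlap, on a 7 dpi array that was dimmer for most names. The summed signal of miR-1 and miR-206 was 2.37 times that of miR-133 in the uninjured heart, with spot sets between 2.25 and 2.42. At 7 dpi it was 1.29 times, between 1.26 and 1.42, and at 21 dpi 1.33 times. This ratio is taken within an array and needs no scaling or total.

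The family of miR-208 and miR-499, carried by myosin genes, stood at 4.60% ± 0.11 and 5.08% ± 1.46, with overlapping spot sets. That spread came from 1 spot of the miR-499-5p probe at 7 dpi, which read 41.7 beside 1620 and 1464. The zebrafish probe of miR-499 had no such spot and read 4062, 4005 and 4008, and then 1656, 1578 and 1452, moving from rank 15 to rank 13. The miR-208b probe stood at ranks 48 and 49. Of the 6 names of miR-208 and miR-499 on the array, 3 were detected. The passenger strand miR-133a*, the partner strand of miR-133a in its hairpin, was called lower, from rank 97 to rank 125.

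The injury miRNA miR-21 and the leukocyte miRNAs were higher in rank and share at 7 dpi, in all 3 spot sets. The human miR-21 probe read 243, 268 and 336 in the uninjured heart and 535, 510 and 449 at 7 dpi, above every uninjured spot although most other probes were dimmer. It rose from rank 85 to rank 40, and its share was 0.146% ± 0.016 and then 0.771% ± 0.068, a log2 ratio of 2.40. At 21 dpi its share was 1.55%. The zebrafish probe of miR-21 was not detected on either array, at -0.44 and 3.89.

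Of the 7 leukocyte names on the array 3 were detected, and all 3 were called higher, beside 12.0% of all ranked names. The miR-223 probe, for a miRNA of granulocytes and monocytes, read 18.4, 31.3 and 33.2 and then 95.5, 107.4 and 89.0, rising from rank 139 to rank 94. The miR-155 probe, for a miRNA of activated leukocytes, read 82.6, 5.05 and 94.2 and then 128, 130 and 135, and rose from rank 118 to rank 81. One of its uninjured spots was dim, but the highest uninjured spot was still below the lowest at 7 dpi. The frog probe of miR-155 read 81.6 and 115, and that of miR-223 only 1.94 and 6.90.

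The miR-150 probe, for a miRNA of mature lymphocytes, read 47.1, 70.9 and 58.0 and then 87.5, 76.8 and 73.6, and rose from rank 127 to rank 105. The human probe of miR-150 read 25.2 and 23.7, and the zebrafish probe was not detected on either array. As a list the leukocyte names went from 0.0938% ± 0.0189 of the signal to 0.457% ± 0.021 at 7 dpi, and the 21 dpi array had 0.297%. The log2 ratio at 7 dpi was 2.28. The names miR-150, miR-155 and miR-223 were each detected on both arrays by the median spot of their brightest probe. Names of miR-142 were not detected on either.

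The erythroid list, led by miR-451, held 1.89% ± 0.13 in the uninjured heart and 1.72% ± 0.06 at 7 dpi, with overlapping spot sets. The miR-451 probe read 3447, 3580 and 3404 and then 1097, 1123 and 1123, at ranks 18 and 20. The summed leukocyte signal was 0.0496 of the erythroid signal in the uninjured heart, with spot sets between 0.0298 and 0.0538, and 0.266 at 7 dpi, between 0.258 and 0.280. Endothelial miR-126 was at ranks 22 and 25, and smooth muscle miR-145 was called lower, from rank 109 to rank 130. The call of miR-145 was lost when ranking was limited to names whose number has a frog or zebrafish probe, and its family member miR-143 was not called. The family of miR-143 and miR-145 held 0.0775% in the uninjured heart and 0.0594% at 7 dpi, with overlapping spot sets. The liver marker miR-122 was detected at 7 dpi alone. It read -0.14, 2.45 and 4.63 in the uninjured heart and 78.3, 89.3 and 85.2 at 7 dpi, at least 2.98-fold higher, and its frog probe read 1.31 and 50.5. Its part in the other differences was not tested. Early embryonic names of miR-302, miR-367, miR-427 and miR-430 were not detected on either array, and the 1 detected neural name, miR-7, read 7.76 in the uninjured heart and was not detected at 7 dpi.

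**Figure D2:**
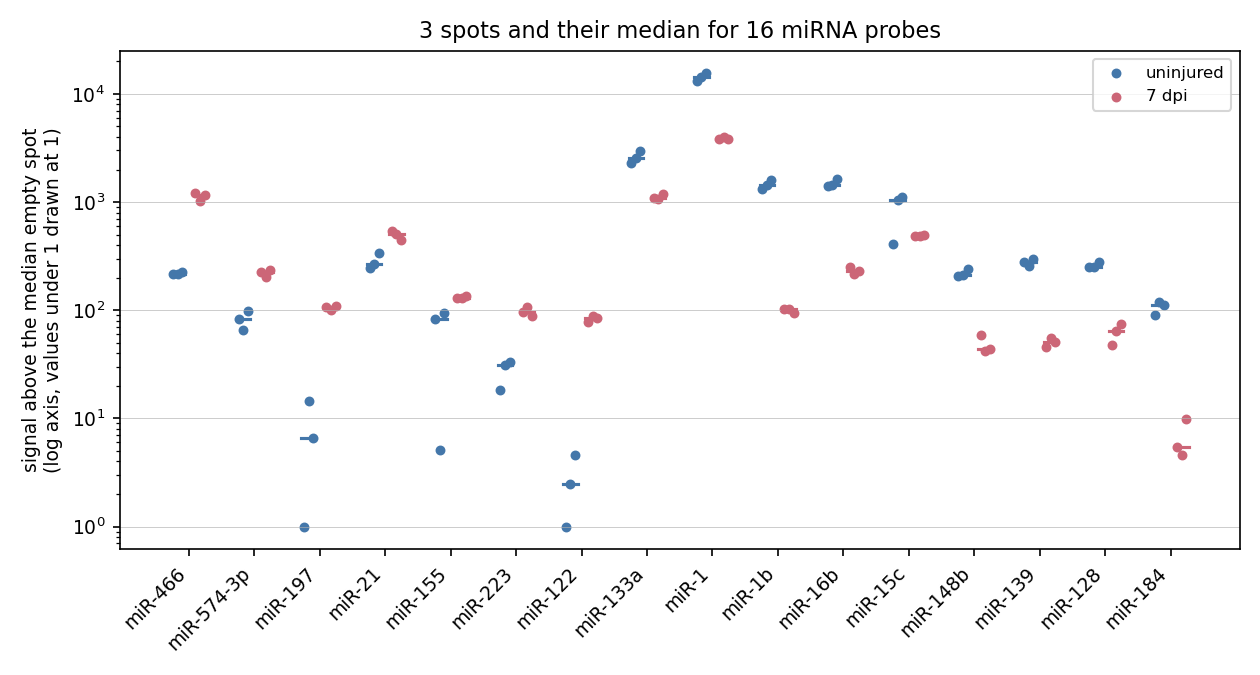
Signal above the median empty spot (y axis, log scale) of the 3 spots of 16 probes on the uninjured (blue) and 7 dpi (red) arrays, with the bar at the median spot. The first 7 miRNAs are brighter on the 7 dpi array by their medians, and the other 9 are dimmer, miR-1b and miR-184 by far more than miR-133a.

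The miR-15/16 family, known from mammals to restrain the cell cycle and the renewal of heart muscle cells, was called lower at 7 dpi in its miR-16 members and not in its miR-15 members. Of its 5 names ranked on both arrays, miR-16a, miR-16b and miR-16c were called lower, beside 12.7% of all ranked names. The miR-16b probe read 1411, 1439 and 1639 in the uninjured heart and 252, 216 and 230 at 7 dpi, falling from rank 37 to rank 57. The miR-16c probe read 689.5, 617.3 and 707.6 and then 143.9, 110.5 and 121.4, from rank 54 to rank 83. The miR-16a probe went from rank 50 to rank 67. Its call was lost when ranking was limited to names whose number has a frog or zebrafish probe. The human miR-16 probe read 44.6, 47.5 and 70.3 and was not detected at 7 dpi, at least 1.64-fold lower. The zebrafish miR-16c probe was dark on both arrays.

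The miR-15c probe, with the same seed, read 407, 1043 and 1106 and then 490, 481 and 500, at ranks 45 and 43, and miR-15b went from rank 80 to rank 93 without passing the size of the call. Summed, the family held 2.42% ± 0.20 and then 1.67% ± 0.06, with a log2 ratio of -0.54 and no overlap. For miR-16b alone, the brightest by its mean over both arrays, the ratio was -1.17, and for miR-15c it was 0.38. The miR-16 probes are near-identical in sequence and can read the same RNA, so they are not separate evidence.

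The family of miR-17, miR-20, miR-93 and miR-106, which favours cell division in mammals, held more of the signal at 7 dpi. It went from 0.714% ± 0.077 to 1.12% ± 0.03, with a log2 ratio of 0.64 and no overlap, and 1.78% at 21 dpi. None of its 10 names was called by rank, and their median shift was 1.5 places down. Their median log2 difference after normalization was 0.009, and the family's share ratio was 0.24 with structural names counted in the total. The median log2 share ratio of its names was 0.64, against 0.17 for all 158 ranked names. By signal on the 21 dpi array, that median was 0.09 for the brightest 53 names, -0.03 for the middle 53 and 0.76 for the dimmest 52. All 10 names of the family have a number with a frog or zebrafish probe. Among such names alone, 48, 50 and 23 in these groups, the medians were 0.09, -0.04 and 0.08. The summed signal of miR-15/16 was 3.39 times that of the miR-17 family in the uninjured heart, with spot sets from 3.26 to 3.42, and 1.49 times at 7 dpi, from 1.42 to 1.58.

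Several further miRNAs were called lower. The miR-139 probe, which in mammals lies in a gene for a phosphodiesterase, read 279, 256 and 296 and then 46.0, 55.6 and 50.8, falling from rank 84 to rank 119. The miR-148b and miR-148a probes share a seed and were called lower together. The first read 209, 213 and 242 and then 59.6, 41.6 and 43.9, from rank 92 to rank 121, and the second went from rank 74 to rank 95. Their family held 0.305% ± 0.004 and then 0.207% ± 0.023, without overlap.

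The miR-128 probe, for a miRNA that restrains heart muscle cell division in mice, read 249, 251 and 282 and then 48.2, 64.2 and 74.6. It fell from rank 87 to rank 115, and its share was 0.137% and then 0.0971%, without overlap, and 0.134% at 21 dpi. The frog probe of miR-128 was also dimmer, and it read 98.7 in the uninjured heart. Zebrafish miR-29b, of a family that restrains collagen genes, read 65.8, 62.4 and 75.1 and then 9.16, 12.01 and 9.60, falling from rank 123 to rank 150. Its family as a whole held 1.16% and 1.40%, and its other 3 ranked names were not called. The names miR-4298, from rank 86 to rank 118, and miR-125a-5p, from rank 77 to rank 98, were also called lower. In the miR-125 family the brighter frog miR-125a went from rank 9 to rank 7 and miR-125b from rank 16 to rank 12. The miR-125c probe, with dim spots at 7 dpi, fell from rank 12 to rank 76 without a call. With ranking limited to names whose number has a frog or zebrafish probe, the calls of miR-29b and miR-125a-5p were lost.

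Among the larger families most shares were close on both arrays. The let-7 family, which marks differentiated cells, was the largest with 23.1% ± 0.6 and 22.3% ± 2.0, overlapping, and let-7a went from rank 3 to rank 2. The miR-23/27/24 family held 11.3% and 12.3%. Its log2 ratio of 0.13 turned to -0.27 with structural names counted in the total, as did those of miR-92/25/18/19, from 0.35 to -0.05, and of miR-29, from 0.27 to -0.13. The miR-26 family was lower, with 7.89% ± 0.34 and 6.16% ± 0.79, and so was miR-126 with 1.64% ± 0.10 and 1.31% ± 0.11. The family of miR-221 and miR-222 was higher, with 0.745% ± 0.047 and 1.12% ± 0.07, a log2 ratio of 0.59. Neither name was called in the full ranking, and the ratio was 0.19 with structural names counted in the total. With ranking limited to names whose number has a frog or zebrafish probe, miR-221 was called higher. For miR-30, miR-125, miR-199 with miR-214 and miR-140, miR-103 with miR-107 and miR-181 the spot sets of the arrays overlapped, and miR-10 was not detected.

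**Figure D3:**
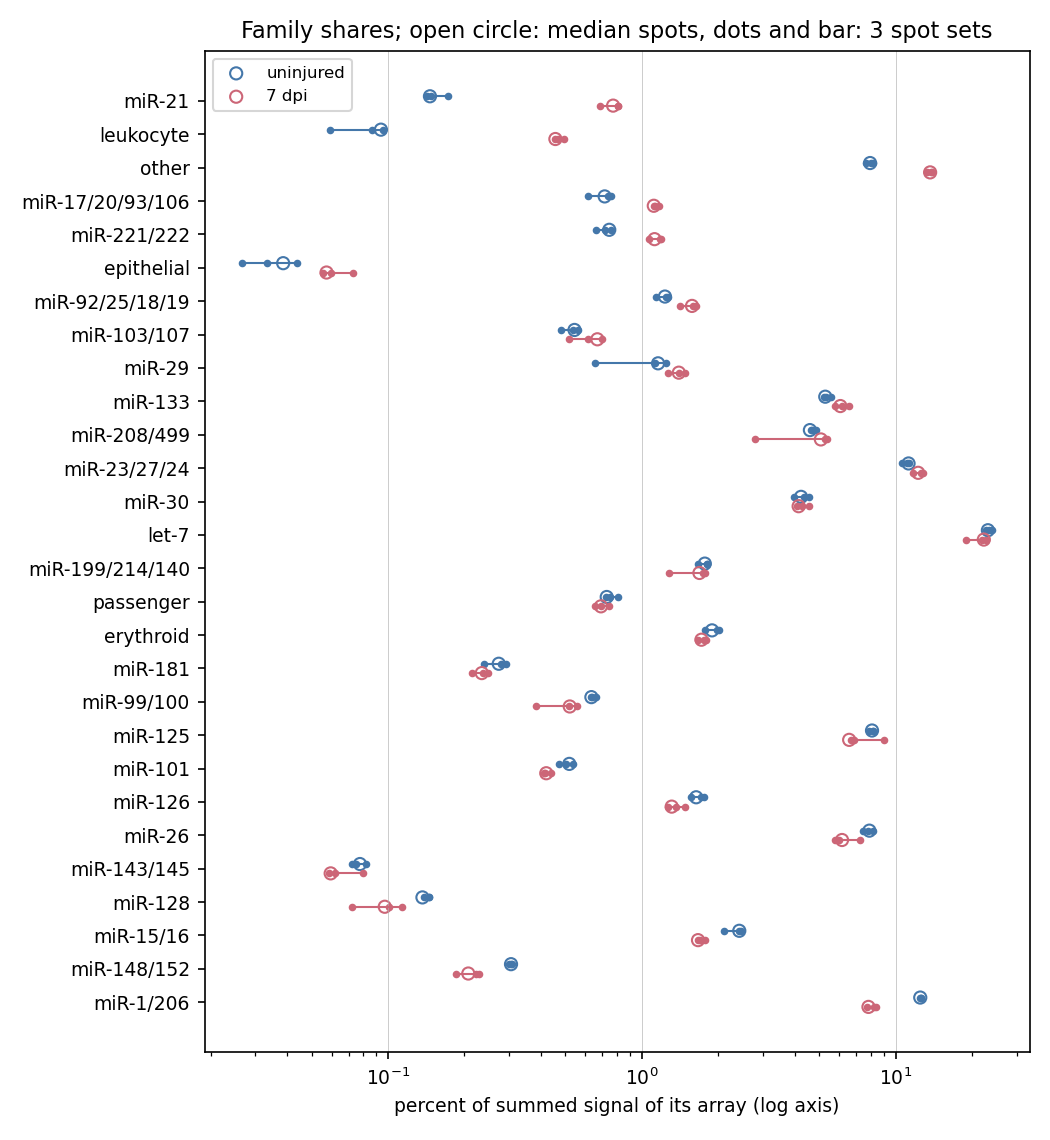
Share of summed signal outside structural names (x axis, percent on a log scale) held by families with a name detected on both arrays. The uninjured array is blue and the 7 dpi array red, and families are sorted by the ratio of the shares. The lists of miR-122 and miR-7, each detected on 1 array only, are not drawn. Open circles are the median spots, and dots with a bar are the 3 spot sets; miR-21 and the leukocyte list lie furthest to the right at 7 dpi relative to uninjured, and the family of miR-1 and miR-206 furthest to the left.

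The largest rank gains belonged to names that the array holds for human miRNAs alone. The miR-466 probe read 215.1, 214.2 and 224.8 in the uninjured heart and 1211, 1032 and 1151 at 7 dpi, rising from rank 91 to rank 19, and 60.8 at 21 dpi. Its log2 difference after normalization was 3.33 ± 0.07 (SE of spots). The miR-197 probe read -0.78, 14.5 and 6.65 and then 106.7, 100.4 and 109.0, from rank 156 to rank 90. The miR-574-3p probe read 83.4, 66.1 and 97.9 and then 226, 204 and 236, from rank 116 to rank 58. None of these overlapped between arrays.

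The miR-762 probe read 285.9, 245.9 and 357.5 and then 694, 573 and 628, from rank 82 to rank 33. The names miR-1469, miR-1976, miR-663 and miR-1260 rose by 49, 49, 46 and 49 places, the last being a name that matches a transfer RNA fragment. Of the 19 names called higher, 15 were of a miRNA number that the array holds for human alone. That was so for 37 of all 158 ranked names and for 4 of the 20 called lower. Human-only names outside the structural list held 2.13% of the uninjured signal, 7.07% of that at 7 dpi and 2.19% of that at 21 dpi, and miR-466 alone held 1.74% at 7 dpi.

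Base composition went with these gains. The median share of G and C bases in the target was 65.0% for names called higher, 43.7% for names called lower and 47.7% for all ranked. Of the 28 names with 60% or more G and C, 11 were called higher and 1 lower, and their median gain was 7 places. Across the 158 names the Pearson correlation of places gained with G and C content was 0.39, and across the 121 whose number has a frog or zebrafish probe it was 0.08. Names share base composition with their families, and miR-466, with 39.1% G and C, did not follow the relation. Human-only naming, base composition and low signal overlapped, and their part in the rank gains was not tested. With ranking limited to the 121 names, a choice made after seeing the data, 5 names were called higher and 8 lower. In the full ranking 4 of the higher calls and 16 of the lower calls were of names in this set. Of these, 4 higher and only 8 lower calls stayed, and the lower calls of miR-16a, miR-29b, miR-125a-5p and miR-145 were among those lost. The other higher call in this set was of miR-221. The miRNAs miR-21, miR-223, miR-155 and miR-150 have probes in this set.

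**Figure D4:**
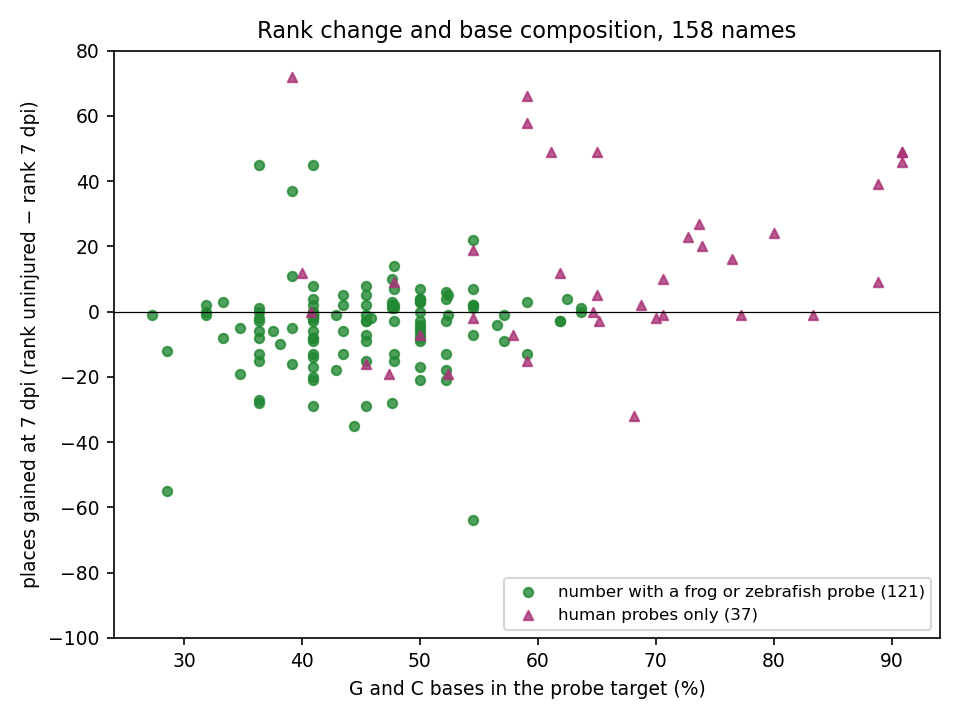
Places gained at 7 dpi (y axis, rank uninjured minus rank at 7 dpi) against the share of G and C bases in the target (x axis, percent) for the 158 ranked names. Triangles are the 37 names with human probes only, which hold most of the gains above 20 places and most of the targets above 65% G and C; circles are the 121 others.

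Detection on 1 array only held for 28 uninjured and 26 7 dpi names, and 43 of these 54 had a bound under 1.5-fold. Besides miR-122, those with the largest bounds at 7 dpi were miR-187 at 2.72-fold, miR-328 at 2.51-fold, miR-885-5p at 2.38-fold and miR-1228 at 2.10-fold, each an "at least" value against the lowest normalized value of a detected probe on the uninjured array, or the probe's own value there if higher. The miR-187 probe had 1 dark spot at 7 dpi, with spots of -2.41, 144.04 and 153.2, and its zebrafish and human probes read 126 and 66.5 there and -0.89 and -0.19 in the uninjured heart. In the other direction miR-184, known from the lens and cornea, read 89.5, 118 and 113 in the uninjured heart and 5.40, 4.55 and 9.95 at 7 dpi, at least 2.42-fold lower. Its zebrafish and frog probes moved alike, from 99.4 to 1.54 and from 94.7 to 6.08, though the frog probe stayed just above the detection level at 7 dpi. The bounds of miR-126b and miR-455-3p were 1.68-fold and 1.51-fold.

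On the scale of normalized signal, where the arrays were given the same distribution, 18 of 212 names detected on at least 1 array were at least 2-fold higher at 7 dpi, or 8.49%, and 4 were at least 2-fold lower, or 1.89%. Of the 19 names higher in rank, 68.4% were among the 18, which is 72.2% of those. The 18 include miR-187, whose spots overlapped between the arrays as signals above the empty spots and not on the normalized scale. The 4 lower names were miR-1b, by 2.22 on the log2 scale, miR-139, miR-16b and miR-184. Of the 20 names lower in rank, only 3, or 15%, were among these 4, and the rest did not pass the 2-fold rule. The split of higher and lower calls turned on the scaling: without normalization the calls were 5 higher and 77 lower, and 44 higher and 11 lower once the shared names were set to a common median.

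The loss of miR-1b relative to miR-1 was 1 of a small set of like losses between near-identical probes. Pairs of probes were taken whose targets differ by at most 2 bases over at least 18, both with a signal of at least 100 on the 21 dpi array, which takes no part in the comparison. The brighter probe there was the partner. These limits were set after seeing the data. In the examples the capital marks the base that differs from let-7a.
hsa-let-7a: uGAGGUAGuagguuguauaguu
hsa-let-7e: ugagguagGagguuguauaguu
dre-let-7g: ugagguaguagUuuguauaguu
xtr-let-7e: ugagguaguagguuguUuaguu
In let-7a itself the capitals are the seed, which the other targets share.

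The miR-1b signal was 10.1% of that of miR-1 on the uninjured array, 2.64% on the 7 dpi array and 9.11% on the 21 dpi array. Human let-7e, which differs from let-7a by U9G, stood at 5.34%, 1.88% and 6.19% of let-7a on these arrays. Zebrafish let-7g, with G12U, stood at 1.46%, 0.645% and 2.04%, and frog let-7e, with A17U, at 24.7%, 12.2% and 31.3%. By their median spots these 4 pairs were at least 2-fold lower at 7 dpi, and the spot sets of each did not overlap between arrays. In spot set 1 the log2 change was under 2-fold for frog let-7e, at -0.69, and for zebrafish let-7g, at -0.91. At 21 dpi the 3 let-7 pairs stood above their uninjured value and the miR-1b pair below it. Over all 76 pairs the median log2 change at 7 dpi was -0.10, and 44 were lower. The 24 pairs with 0 differing bases over their overlap had changes from -0.70 to 0.68, with a median of -0.05. Changes up to that size thus also arose between probes of the same sequence, but none of these 24 pairs changed by 2-fold.

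Of the 11 pairs in which the dimmer probe read under 25% of its partner at 21 dpi, 10 were lower at 7 dpi, with a median log2 change of -0.77. Of the other 65, 34 were lower, with a median of -0.01. The exception among the 11 was a frog let-7i probe set against let-7g, which rose from 10.3% to 18.4%. Most of the 11 share let-7a as their partner, so they are not independent. In the spike-in controls, which pair a matched probe with mismatched ones, the 2 mismatched probes above 1% of their match read 18.1% and 2.18% in the uninjured heart and 17.4% and 2.43% at 7 dpi, and the other 11 of 13 stayed under 1% on both arrays. On the 21 dpi array these 2 read 33.5% and 9.12%, and 1 further mismatched probe read 1.502%. The largest gain, of miR-125b against miR-125c, rested on 2 dim spots of miR-125c at 7 dpi, 139 and 75.6 beside 1938.

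**Figure D5:**
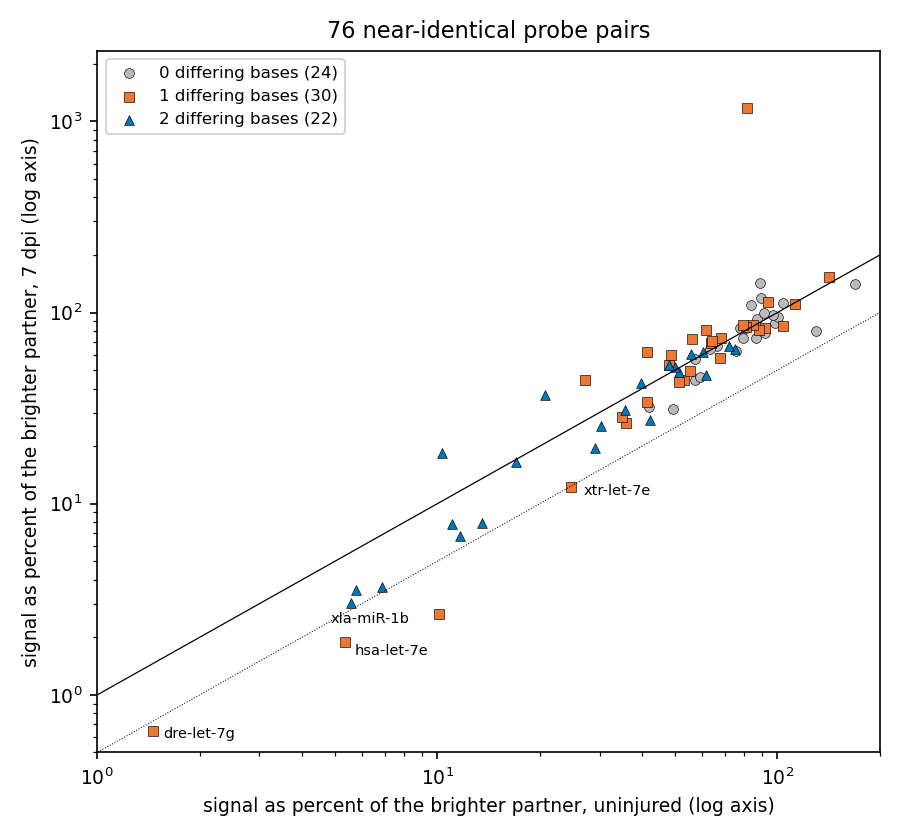
Signal of the dimmer probe of 76 near-identical pairs as a percent of its brighter partner, on the uninjured (x axis) and 7 dpi (y axis) arrays, both on log scales, with marks by the number of differing bases. The solid line is equality and the dotted line a 2-fold loss; the 4 named pairs lie on or under the dotted line, and the point near the top is the miR-125b pair.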

How the data were processed

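Small-RNA-retaining total RNA was hybridised to 1 miRNA array per sample and stained with Cy3, with an assay input of 0.5 µg, per the labels' protocols. Per the file headers, the deposited value of each spot is its median intensity, linear by its range, and no column gives a local background. The series design speaks of paired samples, but each file holds 1 channel of 1 sample and was treated as 1-colour. The authors also deposited a processed intensity per probe, which served as an alternative. How it was made, and with what image software, is not stated in the labels or headers.

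Signals, ranks and shares were computed in Python 3.11.15. For the 2-fold calls, intensities were corrected with normexp (offset 50) and quantile normalized over the 3 arrays in limma 3.58.1 under R 4.3.3, and a call needed a log2 difference of at least 1 without overlap of spots on that normalized scale. A bound sets the mean normalized log2 value of the brighter array against the higher of the lowest normalized value of a detected probe on the other array and the probe's own mean there. Named miRNAs were taken from the 10 brightest on each array, the 10 largest rank rises and falls, and up to 4 of each list. Up to 5 seen on 1 array in each direction were added. Not all of the brightest are named. Names called lower outside the first 10, and other probes of a named miRNA, are given to complete a family. Members, lists and this rule were chosen with earlier results of these data known. The calling steps were tested on simulated data. The number of arrays limits the precision, and no position in a genome is given, as no newt genome was used here.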

Additional observations from a re-analysis of the deposited data

Results flagged for a closer look

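Probes for 5S ribosomal RNA lie outside the miRNA measurement and read far above the empty spots on both arrays, with a median signal of 4897 in the uninjured heart and 4432 at 7 dpi. Of 18 such probes, 14 were detected on both arrays, and their log2 ratios at 7 dpi had a median of -0.10, from -0.49 to 0.69. The median over the 158 miRNA names on the same scale was -1.30. Whether the amount of miRNA or its labelling differed between the samples was not tested.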

How the results depend on the processing

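With 1 array per group, what follows concerns processing alone. For named miRNAs, 77 of 78 rank changes under the mean of spots or the authors' values moved by less than the spread of spot sets. Of 174 family ratios under 6 alternatives, 62 moved by more than that spread. A further 6, of families whose spot sets had not overlapped, changed sign, and the rest moved by less. Ranking all names detected on at least 1 array gave 37 higher and 42 lower, a shift of 20% gave 12 and 3, and frog or zebrafish numbers alone, chosen after seeing the data, gave 5 and 8. Calls of at least 2-fold higher and lower were 5 and 77 without normalization, 44 and 11 with the median of shared names, and 45 and 32 with the authors' values. Only the lower calls moved past 1.5 times with cyclic loess (2), 5S rRNA scaling (43) and empty-spot subtraction with a floor of 32 (13). With structural names in the total, log2 ratios were -1.08 for the miR-1 family, 1.997 for miR-21, -0.45 for let-7, -0.94 for miR-15/16 and 0.24 for the miR-17 family, and signs turned for miR-133 (-0.20), miR-92/25/18/19 (-0.046), miR-23/27/24 (-0.27) and miR-29 (-0.13). The brightest probe alone, the same on both arrays, gave -0.42 for the miR-1 family, 0.14 for let-7 and -1.17 for miR-15/16. Signs turned for epithelial names (-0.85) and names of no list (-0.025), whose spot sets had not overlapped. Among families with overlapping spot sets, signs turned for let-7, miR-125 (0.23) and miR-30 (0.091). The authors' values gave -0.83 for the miR-1 family, and leaving out near-identical dimmer probes, chosen after seeing the data, gave -0.51. Apart from the total, which these names enlarge at 7 dpi, the causes were not tested. Names near the empty spots are limited by signal over background. No paired analysis was possible because each group has 1 sample.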
